A study of Oryza sativa Indica Group with 8 samples.

Results

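The loci described here are the listed genome positions of rice miRNAs that align to many places. The authors' annotation of known miRNAs gives each miRNA an RNAcentral identifier and 1 transcript entry per aligned position, called a locus here. An identifier was taken as high-copy when it had 10 or more loci. This selected 19 of 285 identifiers and 794 of 1233 loci (64.4%). The rule used the number of loci, so that number is a description and carries no test. At the threshold, URS000020F5A7 with 10 loci was inside and URS0000509E19 with 8 was outside.

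The study sequenced small RNAs from rice panicles, the flowering branches of the plant, in 8 libraries. These were the genotypes Basmati370, KolaJoha, ThururBhog and IC463254, each under low and rec nitrogen, with 1 library for each combination, all labelled as the Indica Group. All 19 identifiers had a row in the deposited count table. The per-library columns of that table carry names that match none of the sample labels, so no count is reported, and no genotype or nitrogen level is compared. What follows concerns where the high-copy miRNAs lie.

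Plant miRNAs are cut by a Dicer-like enzyme from RNA that folds back into a hairpin, and they guide an Argonaute protein to matching transcripts. Several rice loci can give the same mature miRNA, because miRNA genes duplicate, singly and in arrays. Short RNA annotated as miRNA can also match transposable elements or organelle DNA, which plant nuclear genomes hold in many inserted pieces. Transposable elements with inverted ends carry the same sequence on opposite strands at their 2 ends. None of these classes was annotated in the files, and the identifiers are not paired there with miRNA names or sequences.

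The high-copy set was dominated by 1 miRNA. URS000038C249, of 22 nt, had 352 loci, which was 44.3% of the high-copy loci. URS00001E48E8 (21 nt) followed with 87, URS0000344D0C (21 nt) with 47 and URS00005EC838 (24 nt) with 45. URS00003701FC and URS00003A7899, both of 22 nt, had 30 each. The median member had 17 loci, and 12 of the 19 members had 20 or fewer. Without URS000038C249, 18 identifiers and 442 loci remained. By length, 8 members of 22 nt held 483 loci, 7 of 21 nt held 220, 3 of 24 nt held 81 and 1 of 20 nt held 10. Every locus of a member had the same aligned length, 2 of the 794 alignments had a gap, and no member locus overlapped another member locus.

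**Figure D1:**
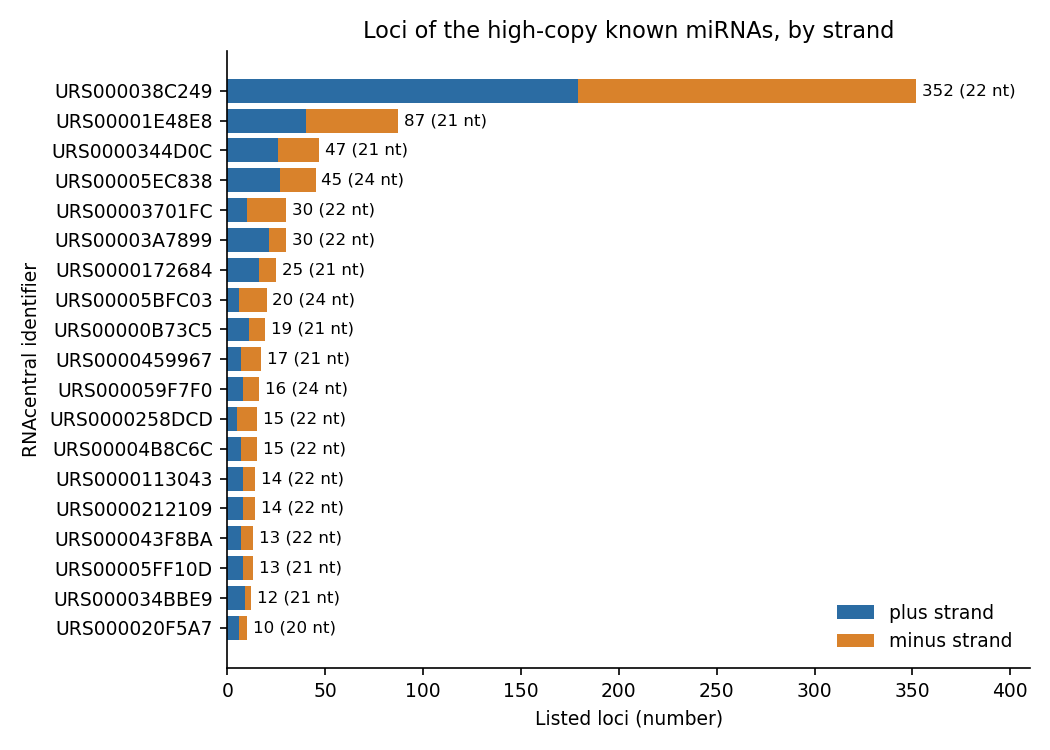
Number of listed loci (horizontal axis) of each high-copy identifier (vertical axis), split by strand, with the total and the miRNA length beside each bar. URS000038C249 has 352 loci and the next identifier 87.

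The 352 loci of URS000038C249 came in equal numbers on most chromosomes. On 7 chromosomes (1, 2, 3, 4, 6, 7 and 11) it had exactly 32 loci, 16 on each strand. Chromosome 5 had 16 on the plus strand and 15 on the minus strand. The others were lower: chromosome 12 had 13 plus and 15 minus, chromosomes 8 and 9 each had 13 plus and 11 minus, and chromosome 10 had 12 plus and 9 minus. Of the 24 combinations of chromosome and strand, 15 were at 16, and none was higher.

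Where the number stood at 16, the listed loci often stopped well before the end of the chromosome. On the minus strand of chromosome 3 the last of the 16 loci ended at 9746350, which was 26.5% of the way along the stretch between the outermost known or predicted loci listed there. On the plus strand of chromosome 3 the last ended at 15324820 (41.9%), and on the plus strand of chromosome 2 at 12385144 (34.4%). Over the 15 strands at 16, the last locus lay at 26.5% to 99.6% of the stretch, with a median of 74.6%. Over the 9 strands with fewer, it lay at 84.9% to 99.96%, with a median of 97.8%. No other known identifier had more than 11 loci on 1 strand of 1 sequence. Those 11 were of URS00003A7899 on the plus strand of the mitochondrial sequence, not of a chromosome. No label or file header gives a limit on hits per strand, and whether one was set was not tested. The number 352, the strand split and the chromosome shares of this miRNA should be read with these values beside them, as a listing and not as a copy number.

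**Figure D2:**
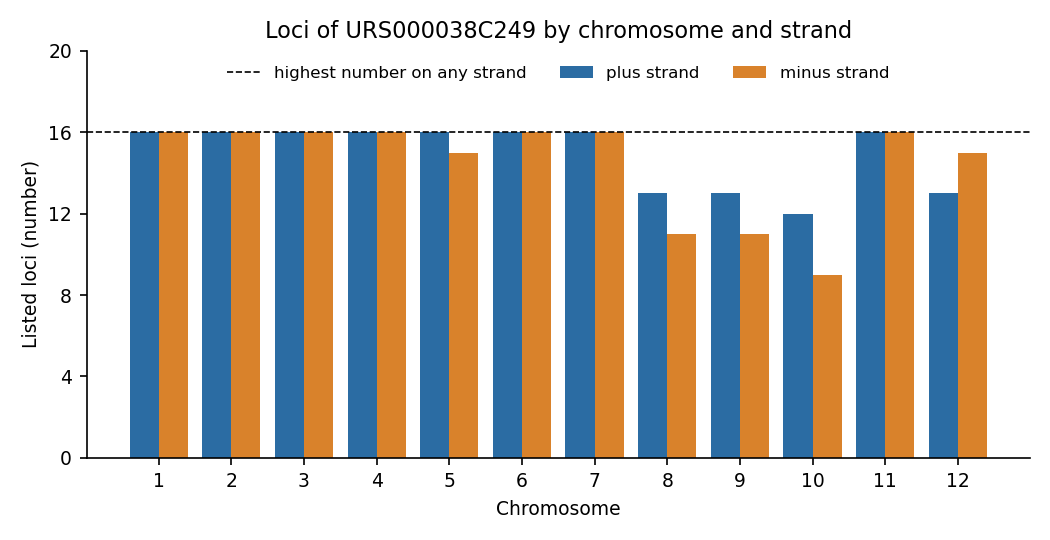
Number of listed loci of URS000038C249 (vertical axis) on each chromosome (horizontal axis), by strand, with a dashed line at the highest value. On 15 of 24 strands the bar is at 16, and no bar is above it.

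Strand use over all members was close to balanced. There were 409 loci on the plus strand and 385 on the minus strand (51.5% plus). Without URS000038C249 the numbers were 230 and 212 (52.04% plus). URS000038C249 itself had 179 plus and 173 minus loci, and 7 chromosomes contributed 16 of each. On the 4 chromosomes where neither strand was at 16, it had 51 plus and 46 minus loci (52.6% plus). Known miRNAs below the threshold had 241 plus and 198 minus loci (54.9% plus). No test of these shares was run, because loci of 1 identifier share their sequence and are not independent.

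Single members ranged more widely. URS000034BBE9 had the highest share, with 9 of its 12 loci on the plus strand (75%), and these 9 lay in only 2 clusters. URS00005BFC03, of 24 nt, had the lowest, with 6 of 20 (30%). URS00003701FC had 10 of 30 and URS0000258DCD 5 of 15 (33.3% each). URS00003A7899 had 21 of 30 (70%). Shares from 40% to 60% were found in 12 of the 19 members.

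Chromosome 4 held the most listed high-copy loci, with and without the leading miRNA. Among the 769 high-copy loci on chromosomes 1 to 12, it had 86 (11.2%), and chromosome 9 had the fewest, with 44 (5.72%). Without URS000038C249, chromosome 4 held 54 of 417 (12.9%) and chromosome 9 held 20 (4.80%). Both rankings have limits. URS000038C249 had 32 listed loci on chromosome 1 and 32 on chromosome 4. Its list ended at 74.6% (plus) and 66.7% (minus) of the stretch on chromosome 1. On chromosome 4 it ended at 99.6% and 99.0%. The 54 loci take in 7 clustered loci of URS000034BBE9, and others of the plastid group described below. Chromosome 2 went from 7.28% to 5.76%, chromosome 8 from 8.71% to 10.3% and chromosome 11 from 7.41% to 5.995%. Known loci below the threshold had another order: 14.4% of their 436 loci were on chromosome 2, the most, and 9.17% on chromosome 4.

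Set against the stretch between the outermost listed loci, chromosome 10 had the highest density of high-copy loci, 2.49 per Mb, followed by chromosome 4 with 2.47. Chromosome 2 had the lowest, 1.58 per Mb. These values take in the uneven list of URS000038C249. On chromosome 2, with 16 loci per strand, it ended at 34.4% (plus) and 69.0% (minus) of the stretch. On chromosome 10, with neither strand at 16, it ended at 97.8% and 89.3%. Without URS000038C249, chromosomes 10, 4 and 8 were close together, at 1.56, 1.55 and 1.53 per Mb, and chromosome 2 was again lowest at 0.677. These are densities on listed stretches, since neither the labels nor the file headers give the build or the chromosome lengths.

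**Figure D3:**
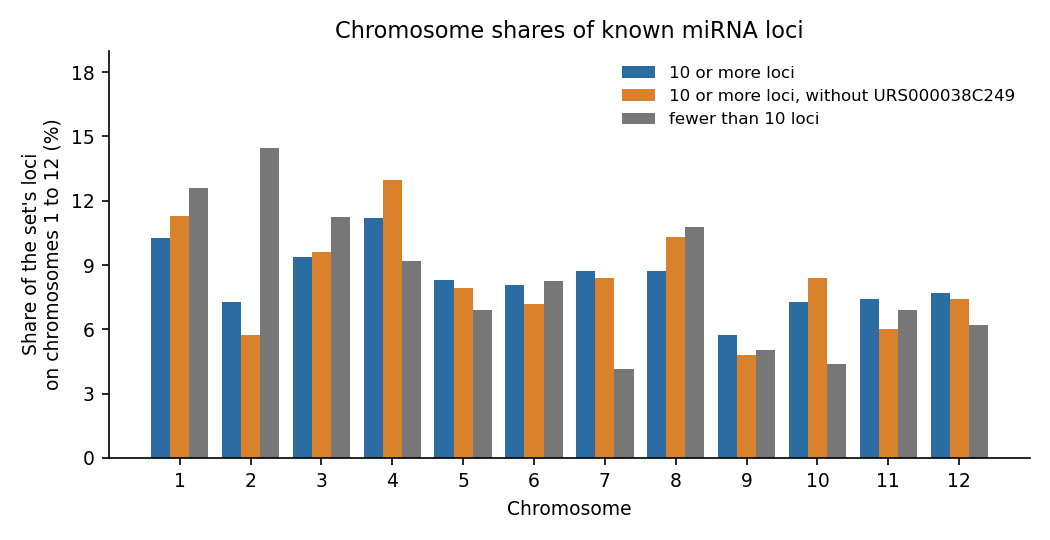
Share of each set's loci on chromosomes 1 to 12 (vertical axis, %) by chromosome (horizontal axis), for high-copy miRNAs with and without URS000038C249 and for miRNAs with fewer than 10 loci. Chromosome 4 holds the largest share of the listed loci in both high-copy sets (11.2% and 12.9%), and chromosome 2 the largest share of the low-copy set (14.4%).

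Members differed in where along a chromosome they lay. Each listed stretch was divided into 3 equal parts. In the middle part were 25 of the 47 loci of URS0000344D0C (53.2%) and 8 of the 16 loci of URS000059F7F0 (50%). URS00004B8C6C and URS000043F8BA each had 5 of 11 chromosomal loci there (45.5%), and URS00000B73C5 had 8 of 18 (44.4%). URS00001E48E8 had 20 of 86 chromosomal loci there (23.3%) and URS0000172684 had 5 of 25 (20%). URS0000258DCD had 3 of 15 and URS000020F5A7 2 of 10 (20% each). URS00003A7899 had 3 of 16 chromosomal loci there (18.75%). URS000034BBE9 had 0 of 12, but these lay in only 3 clusters on 2 chromosomes. All high-copy loci together gave 27.6%, and 31.7% without URS000038C249. Known loci below the threshold gave 24.5% and predicted loci, which the authors list as new miRNA loci, 31.6%. For URS000038C249 the value was 80 of 352 (22.7%), and the early ends of its list touch this value directly.

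Most members were scattered, with large distances between their own loci. Spacing is given from start to start of consecutive loci on 1 sequence. The median spacing within an identifier was over 1 Mb for 13 of the 19 members and reached 11001 kb for URS0000258DCD. That value rests on 7 spacings, and the closest 2 loci of URS0000258DCD were 17.2 kb apart. Spacing also depends on the number of loci, by which the members were selected. URS00001E48E8 lay on all 12 chromosomes, and once on a sequence named Syng_TIGR_011, with a median spacing of 2223 kb and no 2 of its loci closer than 52.4 kb. URS00005EC838, with 45 loci on all 12 chromosomes and 9 of them on chromosome 3, had a closest spacing of 36.5 kb. URS00003701FC, with 30 loci on 11 chromosomes, had a closest spacing of 252 kb. Of its 19 consecutive pairs, 15 were on the same strand, but 20 of its 30 loci were on the minus strand. Beyond 100 kb, 271 of 549 consecutive pairs of any members were on the same strand. URS00005BFC03 never came closer to itself than 1392 kb, and URS00005FF10D (13 loci on 7 chromosomes) no closer than 1858 kb. No pair of own loci within 10 kb was listed for 10 members. The arrangements of the 9 others follow.

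Over all members, 94 consecutive pairs lay within 10 kb, and 57 of them joined 2 loci of the same identifier. They formed 73 runs that held 167 loci (21.03%). Of these runs, 62 had 2 loci, 4 had 3, 4 had 4 and 3 had 5. On chromosomes 1 to 12 alone, 87 of 757 consecutive high-copy pairs (11.5%) were this close, and 49 of 405 (12.1%) without URS000038C249. Known loci below the threshold had 110 of 424 (25.9%).

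Very close pairs of URS000038C249 had 1 orientation and nearly 1 spacing. In 25 of its 26 pairs within 250 bases, the first locus was on the minus strand and the second on the plus strand, so that they pointed away from each other. The remaining pair, on chromosome 5, had both loci on the plus strand, 249 bases apart. The opposite arrangement, plus then minus, was not listed at this distance. The 25 pairs lay on 10 chromosomes, with 5 on chromosome 6 and 4 on chromosome 11, and their median spacing was 201 bases. The spacing was 197 to 208 bases in 21 of them, and 160, 90, 87 and 72 bases in the other 4. On chromosome 3, for example, the miRNA was listed at 457820 to 457841 on the minus strand and at 458022 to 458043 on the plus strand.

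At larger distances the orientations of URS000038C249 were mixed. From 10 kb to 100 kb apart, 8 pairs pointed away from each other, 8 towards each other and 16 were on the same strand. Beyond 100 kb these numbers were 59, 84 and 135. The 25 pairs held 50 of the 352 loci (14.2%), and 302 loci had no such partner in the list. On the 7 chromosomes with 16 loci on both strands, 30 of 224 loci were in such pairs (13.4%). On the 4 chromosomes with neither strand at 16, 14 of 97 were (14.4%).

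URS0000172684, a 21-nt miRNA with 25 loci, showed the same orientation. All 4 of its pairs within 250 bases had the minus locus first and the plus locus second. Their spacings were 67 bases on chromosome 6, 85 on chromosome 10, 95 on chromosome 2 and 160 on chromosome 7, and they held 8 of its 25 loci (32%). The closest 2 loci of any member were those on chromosome 6, at 30996067 to 30996087 and 30996134 to 30996154. Both identifiers also met each other in this arrangement. On chromosome 1, URS000038C249 at 2850024 on the minus strand was followed by URS0000172684 at 2850234 on the plus strand, 210 bases on. On chromosome 11, the same order was listed at 7092652 and 7092859, 207 bases apart. URS0000459967 (17 loci) had 1 pair of this orientation, on chromosome 5, 404 bases apart.

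**Figure D4:**
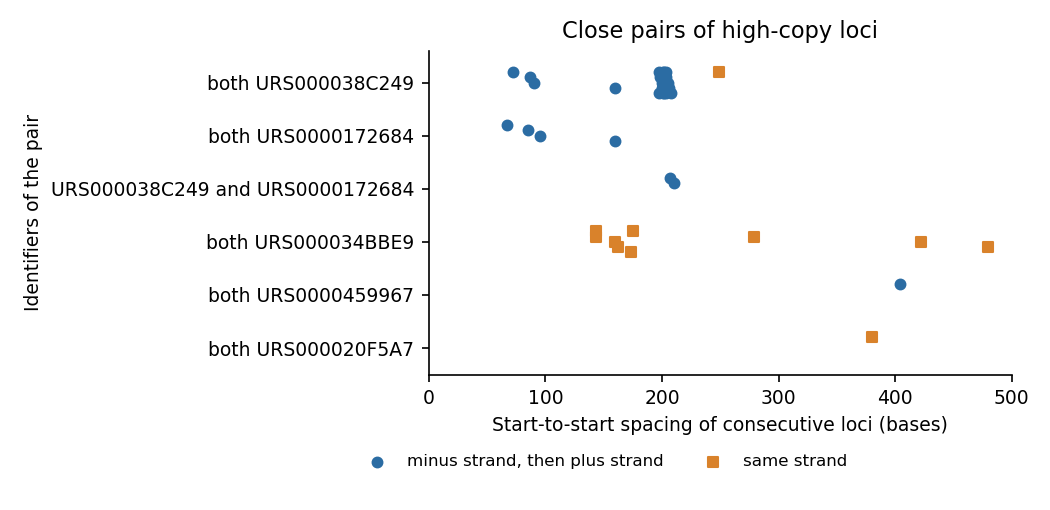
Start-to-start spacing in bases (horizontal axis) of consecutive high-copy loci up to 500 bases apart, by the identifiers of the pair (vertical axis), each point 1 pair, with circles for a minus locus followed by a plus locus and squares for 2 loci on the same strand. In 21 pairs of URS000038C249 the spacing is 197 to 208 bases, and all 9 pairs of URS000034BBE9 are on the same strand.

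URS000034BBE9 was arranged as short arrays instead. Its 12 loci lay in 3 clusters on 2 chromosomes, and within each cluster every locus was on the same strand. On chromosome 8, 5 loci on the plus strand spanned 3299225 to 3299915, with spacings of 162, 173, 160 and 175 bases. On chromosome 4, 3 loci on the minus strand spanned 31804643 to 31805364, with spacings of 279 and 422 bases. A further 4 on the plus strand of chromosome 4 spanned 32622092 to 32622878, with spacings of 480, 143 and 143 bases. The clusters on chromosome 4 were 816748 bases apart. This miRNA had the smallest median spacing of all members, 174 bases, and the largest share on 1 chromosome, 7 of 12 loci (58.3%) on chromosome 4. Between 2 loci of the first cluster on chromosome 4 lay URS00000B82EF, a known miRNA with 1 listed locus, on the same strand at 31805203 to 31805223.

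Pairs within 250 bases were set beside those of the other known miRNAs. Among high-copy loci, 31 of 38 such pairs were on opposite strands and 36 joined the same identifier. URS000038C249 alone gave 25 of these 31, and without it 4 of 10 pairs were on opposite strands (40%) and 6 on the same strand. Among known loci below the threshold, 80 of 85 were on the same strand and 3 joined the same identifier. In that set a pair can be the 2 arms of 1 hairpin, which share a strand. The difference between the sets was not tested, for the reason given above for strand shares.

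Loci of low-copy known miRNAs beside high-copy loci were counted apart from the pairs of different high-copy miRNAs given above. No matching share for known loci below the threshold is given, so the count is not read as a trait of high-copy miRNAs. A shared strand was also usual below the threshold, in 80 of 85 pairs within 250 bases. In all, 8 of the 794 loci had a locus of a low-copy identifier within 200 bases, all on the same strand, and 6 of these belonged to URS000020F5A7. This 20-nt miRNA had 10 loci on 6 chromosomes. On chromosome 1, at 4666003 and 4666383, it was followed after 51 bases by URS000000CCDD and after 47 bases by URS0000105F8D. On chromosome 6, at 26554836, URS0000570BF8 followed after 46 bases. On chromosome 8, at 21478233 and 21491235, URS000019CB0D followed both times after 140 bases. On chromosome 9, at 15065256, URS000000CCDD followed after 70 bases. In each of these 6 cases the partner lay on the higher-coordinate side and on the plus strand, like the member locus. The 4 loci of URS000020F5A7 on the minus strand had no such partner.

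Another arrangement was a spacing of about 5 kb found in single pairs on several chromosomes. Among its 35 consecutive pairs, URS0000344D0C had 4 same-strand pairs spaced 5192 to 5217 bases, on chromosomes 4, 5, 7 and 12. It had 1 of 8543 bases on chromosome 2. On chromosome 12 this miRNA alternated with URS00000B73C5, a 21-nt miRNA with 19 loci, over a run of 5 loci from 12657472 to 12674546. URS0000344D0C lay on the plus strand at 12657472, 12662687 and 12674526, and URS00000B73C5 on the minus strand at 12661402 and 12666606. The offset from URS0000344D0C to the next URS00000B73C5 was 3930 bases the first time and 3919 the second, and the 2 loci of URS00000B73C5 were 5204 bases apart. These were the only 2 loci of URS00000B73C5 within 10 kb of each other.

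A group of 4 members of 22 nt occurred in the plastid sequence, which the annotation names Pt, and in blocks of the same order on the chromosomes. These were URS0000212109, URS00004B8C6C, URS0000113043 and URS000043F8BA, with 14, 15, 14 and 13 loci. They supplied all 7 high-copy loci on Pt. Plastid genomes of rice and most land plants hold a large repeat in 2 inverted copies, and 3 of the 4 identifiers had 2 loci on Pt, on opposite strands.

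On Pt, the plus strand carried URS0000212109 at 77449, URS00004B8C6C at 82120, URS0000113043 at 84894 and URS000043F8BA at 93815. The steps between them were 4671, 2774 and 8921 bases. The minus strand repeated the last 3 in reverse order, with URS000043F8BA at 121282, URS0000113043 at 130203 and URS00004B8C6C at 132977, again with steps of 8921 and 2774 bases.

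On the chromosomes, 13 steps between neighbours followed the Pt order on 1 strand, and all 13 were within 40 bases of the Pt step. The step of 2774 bases was found 6 times, on chromosomes 4, 7, 8 and 10, and was exactly 2774 in 4 of them, 2773 in 1 and 2764 in 1. The step of 8921 bases on Pt was 8906 to 8926 in 4 places, and that of 4671 was 4661 to 4711 in 3. The whole row of 4 was listed on chromosome 8 from 9249561 to 9265943 on the minus strand, and on chromosome 10 from 10884550 to 10900915 on the plus strand. Chromosome 10 also had a row of 3 on the minus strand from 10793967 to 10805668, facing away from the first across 78903 bases. Chromosome 7 had 3 on the minus strand from 14231504 to 14243219. On chromosome 4, from 9138848 to 9157438, a pair on the plus strand met a row of 3 on the minus strand.

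These steps took in 19 of the 47 chromosomal loci of the 4 miRNAs (40.4%), and 28 lay outside them. Some of the latter were also near each other, with other distances or another order. On chromosome 4, URS0000113043 at 23647976 preceded URS00004B8C6C by 7650 bases. On chromosome 1, URS0000212109 at 33503970 preceded URS000043F8BA by 7492 bases. On chromosome 2, URS000043F8BA at 14248228 preceded URS0000113043 by 7724 bases. Of the 37 pairs of different high-copy miRNAs within 10 kb on any sequence, 21 joined members of this group.

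**Figure D5:**
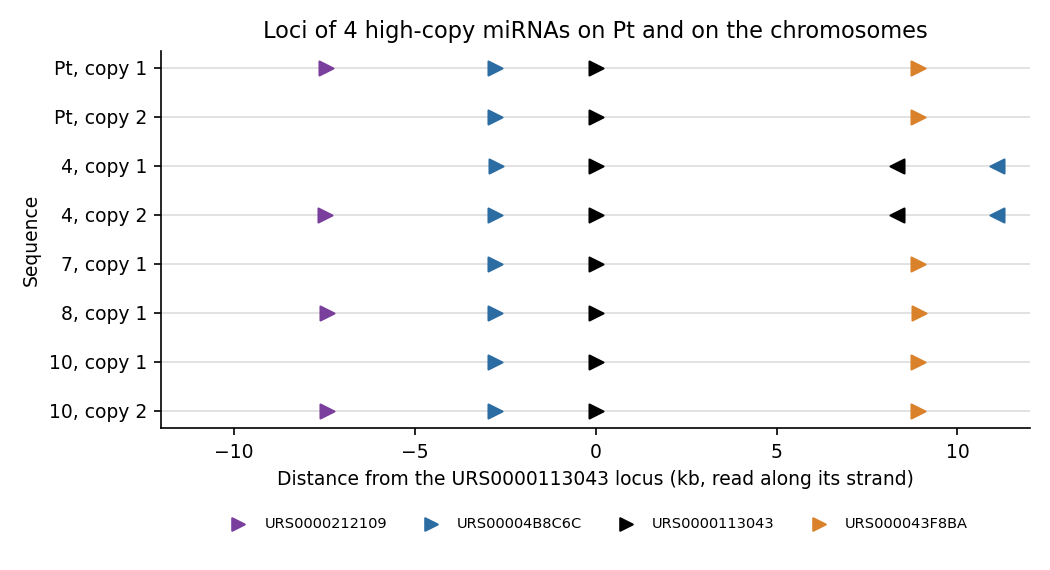
Distance in kb, read along the strand, of loci of 4 high-copy miRNAs from a locus of URS0000113043 (horizontal axis), for each place on Pt or a chromosome where URS00004B8C6C and URS0000113043 follow each other in the Pt order (vertical axis). Colours give the identifier, right-pointing marks the strand of the URS0000113043 locus and left-pointing marks the other strand. At the 6 chromosomal places, the steps listed in the Pt order are within 40 bases of those on Pt. Among these places, the whole row of 4 is present only on chromosome 8 and on the plus strand of chromosome 10. The 2 places on chromosome 4 face each other.

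URS00003A7899 had most of the high-copy loci on the mitochondrial sequence, named Mt. Of its 30 loci, 14 were on Mt, 11 of them on the plus strand and 3 on the minus strand. A further 12 were on chromosome 12, and 10 of these lay within 149 kb, from 20528648 to 20677537, with 6 on the plus and 4 on the minus strand. The other 2 on chromosome 12, at 13397612 and 13405411, were 7799 bases apart, and 4 further loci were single, on chromosomes 1, 4, 6 and 9. On chromosome 12, the loci at 20575533 and 20579995 were 4462 bases apart on the plus strand, the same spacing as those at 168021 and 172483 on Mt. The loci at 20654705 and 20661083, on the minus strand, were 6378 bases apart, against 6377 for those at 262581 and 268958 on the plus strand of Mt. The remaining spacings within this stretch of chromosome 12 had no counterpart within 50 bases among consecutive loci on Mt.

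Spacings also repeated within Mt. URS00003A7899 was listed on the minus strand at 351175 and on the plus strand 25214 bases further on, and again on the minus strand at 432262 with a plus locus 25214 bases further on. URS00004B8C6C, also of the plastid group, had both of its Mt loci on the minus strand, at 31186 and 125713. Each was followed by URS00003A7899 on the plus strand, after 15111 and 15110 bases.

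Loci that the authors list as new lay near few known loci, whether high-copy or below the threshold. Of the 794 high-copy loci, 0 shared a base with any of the 1016 predicted loci, 4 had one within 1 kb (0.504%) and 45 within 10 kb (5.67%). Of the 439 known loci below the threshold, 2 overlapped a predicted locus, 10 had one within 1 kb (2.28%) and 28 within 10 kb (6.38%). No test of these differences was run. The closest to a high-copy locus was a predicted locus on chromosome 7, from 13425814 to 13425880, with 182 bases between it and URS000038C249. Near the organelle group, the same distance occurred in 2 places. URS00003A7899 on the minus strand of chromosome 12 at 20661083 had a predicted locus 816 bases towards higher coordinates, and its locus on the plus strand of Mt at 262581 had one 817 bases towards lower coordinates, both 59 bases long as end minus start. URS00004B8C6C on the minus strand of chromosome 10 at 10805647 had one 1519 bases towards higher coordinates, and on the plus strand of chromosome 8 at 22327258 one 1521 bases towards lower coordinates, both 42 bases long. In both cases the predicted locus lay before the 5′ end of the miRNA. Whether predicted loci are counted from 0 or from 1 is not stated, so these distances could be off by 1 base.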

How the data were processed

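Known miRNA loci came from the annotation the authors deposited. Per the file headers and attributes, its entries are RNAcentral alignments of type miRNA. Positions are counted from 1, as in GFF files, and no label or header names their build. Japonica rice was the reference, by the series' design text, while the libraries are labelled Indica, so positions are not those of the sequenced genotypes. Tools named by the submitters' processing notes are Subread, bedtools, Bowtie and fastp, without versions, order or settings. A gene table on another assembly was not used for positions. From both deposited count tables the row names alone were used, because 16 per-library columns match no sample label; depth per library is therefore not given.

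Transcript entries were counted per identifier, and identifiers with 10 or more were kept. Consecutive loci were compared by start-to-start spacing, with neighbours within 10 kb. No test, p-value or adjustment was computed, since the loci have no samples and those of 1 identifier share their sequence. The code for pairs was tested on simulated data. Members and lists were chosen with earlier results of these data known. By the rule for names, every member is named with its loci or its arrangement, and the extremes of strand, spacing and chromosome share are described. The 250-base limit, the grouping of organelle miRNAs and the tolerance of 50 bases for shared steps were chosen after the positions had been seen. The number of loci per strand was also examined only then. Scripts ran in Python 3.11.15 with Matplotlib 3.10.9, SciPy 1.17.1, NumPy 2.4.6 and pandas 2.3.3.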

Additional observations from a re-analysis of the deposited data

How the results depend on the processing

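No paired analysis of low and rec nitrogen within a genotype was possible, because the per-library columns match no sample label. The loci themselves have no replicate numbers. Of 66 values under other settings, 47 stayed within 1.5 times the reported count or distance, or within the exact 95% binomial interval of the reported share, and 19 did not. That interval takes loci as independent and serves only as a yardstick. Without URS000038C249 the number of loci went from 794 to 442, their share of known loci from 64.4% to 50.2%, neighbours within 10 kb from 94 to 56, the share of these on the same strand from 50% to 75% and of the same identifier from 60.6% to 48.2%, and the median spacing from 254 to 510 kb. A threshold of 5 loci gave 35 identifiers and 72.3% of known loci. A threshold of 20 gave 8 identifiers, 51.6% of known loci and 56 neighbours, 30.4% on the same strand and 82.1% of the same identifier. Neighbours numbered 44 within 1 kb (25% on the same strand, 93.2% of the same identifier) and 176 within 50 kb. Predicted loci lay within 1 kb of 4 high-copy loci and within 10 kb of 45, against 0 overlaps. Chromosome 4 held the most listed high-copy loci under each of these choices of loci (10.2% to 12.2%). All of them except that without URS000038C249 keep its list, which ended earlier on chromosome 1 than on chromosome 4. The choice without URS000038C249 keeps the 7 clustered loci of URS000034BBE9 and those of the plastid group. No choice left out all of these loci. The share of chromosome 4 and that on the plus strand stayed within their intervals. Leaving out organelle and unplaced sequences kept every value computed within these bounds. So did leaving out gapped alignments and merging overlapping loci, but these 2 settings could change little. Only 2 of the 794 alignments had a gap, and no member locus overlapped another. The 25 pairs of URS000038C249 were also 25 at limits of 500 and 1000 bases, and the 13 steps shared with Pt were 12 at a tolerance of 20 bases and 13 at 500, settings chosen after seeing the data.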
